A study of Mus musculus with 25 samples.

Results

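Of 6 anti-CTLA-4-treated mouse melanomas that went on growing, the 3 with the highest pigment gene levels were set against 5 melanomas given an isotype control antibody. These 3 tumours, here called pigment-high non-responders, were chosen by the mean of log2(CPM + 1) over Mlana, Pmel, Dct, Tyr and Tyrp1, where CPM is counts per 1000000 counts of a tumour. They are 3 of 25 tumours in the series, and non-responders 1, 2 and 3 were the members. The remaining 3 non-responders, 6 stable tumours and 8 responders serve only as reference.

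All tumours grew from B2905 cells, a melanoma line also named M4, implanted in C57BL/6 mice. Treated animals received an antibody against CTLA-4 and controls received IgG2b, each at 10 mg/kg, 2 times a week for 2 weeks. Treated tumours were classed 10 to 11 days after the last dose as non-responder (still enlarging), stable (size held) or responder (shrinking). The labels give no age and no detail of the antibody clones, every tumour comes from 1 cell line, and each tumour has its own id. The number of a tumour below follows the order of the records and pairs no tumours.

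Pigment genes encode the enzymes and structural proteins of the melanosome, and melanocytic tumours carry them under control of the factor MITF. CTLA-4 is a receptor on T cells that competes with CD28 for CD80 and CD86 and so restrains T cell activation. Activated T cells and natural killer cells release interferon-γ, which acts through JAK-STAT signalling and IRF1 on genes of antigen presentation, T cell chemokines and the guanylate-binding proteins, a family of large GTPases.

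The pigment score that chose the tumours was 8.78 in non-responder 1, 9.79 in non-responder 2 and 10.50 in non-responder 3. The 3 non-responders outside the choice had 6.59, 5.86 and 5.39, so the gap across the threshold ran from 8.78 to 6.59. Controls lay between 10.31 and 10.99 (mean 10.59 ± 0.25, SD, n = 5). Only non-responder 3 lay inside the control range, and non-responders 1 and 2 lay below every control. By this score 1 of the 3 tumours had kept pigment genes at a control level, and the other two had kept part of it. Stable tumours scored 1.55 to 4.41 and responders 0.909 to 5.63.

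**Figure D1:**
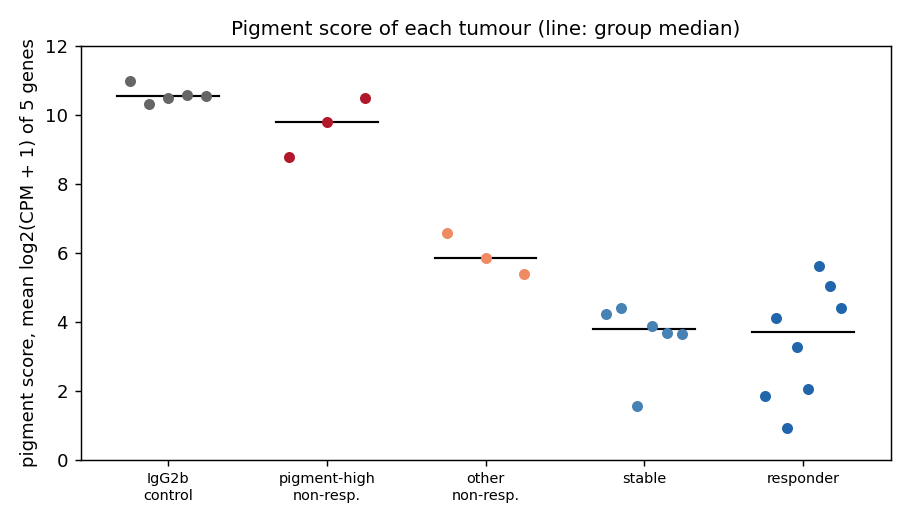
Pigment score of each tumour, the mean of log2(CPM + 1) over 5 pigment genes (vertical axis), by group, with a point for each tumour and a line at the group median. Of the 3 pigment-high non-responders, 1 at 10.50 lies among the controls (10.31 to 10.99) and the others at 8.78 and 9.79 lie below them.

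Dct, which encodes dopachrome tautomerase, was at 1779, 3656 and 6821 CPM in non-responders 1, 2 and 3 and at 4959 to 8386 CPM in controls. Tyr, the gene of tyrosinase, the rate-limiting enzyme of melanin synthesis, was at 342, 551 and 640 CPM against 815 to 1181 CPM. Tyr was the only gene of the 5 at which all 3 tumours lay below all 5 controls. Pmel, which encodes the fibril protein of the melanosome, was at 617, 1668 and 2648 CPM against 1968 to 3390 CPM. Mlana (69.3, 98.1 and 161 CPM against 135 to 257) and Tyrp1 (618, 1639 and 3406 CPM against 2373 to 4043) had the same order among the tumours, lowest in non-responder 1. These 5 genes made the choice, so they are described without a test.

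The members had 10.9, 19.4 and 22.2 M counts and the controls 17.7 to 34.3 M, and non-responder 1 was the shallowest of the 8. Protein-coding genes took 86.1 to 88.4% of counts in the members and 86.4 to 88.4% in the controls. No pair of tumours within a group had counts close enough to be 1 library deposited again.

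In the pigment-high non-responders, 6 of 17 T cell genes, 6 of 16 interferon-induced GTPase genes and 3 of 13 genes of interferon-γ signalling were called higher than in controls, and none was called without non-responder 1. Of 18808 genes tested, 69 (0.367%) differed at an adjusted p under 0.05 (edgeR's quasi-likelihood test, Benjamini-Hochberg over all genes), 63 (0.335%) higher and 6 (0.0319%) lower. At an unadjusted p under 0.05 there were 1458 higher genes (7.75%) and 416 lower (2.21%), and the median log2 fold change over all genes was 0.02, with 52.8% of genes above 0. In 796 genes (4.23%) all 3 tumours lay above all 5 controls, and in 440 (2.34%) below. The same fit called 4792 genes (25.5%) between the other 3 non-responders and the controls, 15.1% higher and 10.4% lower.

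The number of calls changed with the tumours in the fit. Fitted on the 8 tumours alone, edgeR tested 16903 genes and called 0 (2190 at an unadjusted p under 0.05), while DESeq2 on all 25 called 335. Leaving out non-responder 1 left 1 call, none of the 69, and leaving out non-responder 3 gave 498. Leaving out control 1, 2, 3, 4 or 5 gave 0, 8, 6, 0 and 300 calls (1398 and 1454 at an unadjusted p under 0.05 for the 2 counts of 0). Each of the 69 that could be tested kept its direction under every one of these fits. They were picked on mostly the same tumours, so the kept direction is no separate support. The fold changes below are log2 values of the 25-tumour fit with their standard errors (SE), the p-values are its adjusted values, and the tests hold for tumours picked by pigment.

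Promoters of Gbp5, Socs1 and Cxcl9 are printed because the genes were called together and belong to the interferon-γ response. The stretches are RefSeq sequences on GRCm38.p6, each running from 250 bases before to 50 bases after RefSeq's start of the gene, 5′ to 3′ on the gene's strand. For Gbp5 that start lies inside the gene as GENCODE M21 places it, downstream of the GENCODE start. They lie at chr3:142496684-142496983 (Gbp5, plus strand), chr16:10785487-10785786 (Socs1, minus strand) and chr5:92328030-92328329 (Cxcl9, minus strand). Capitals mark matches, on either strand, to TTCNNNGAA, the form of an interferon-γ-activated site (GAS), or to GAAANNGAAA, the core of the interferon-stimulated response element (ISRE).
Gbp5: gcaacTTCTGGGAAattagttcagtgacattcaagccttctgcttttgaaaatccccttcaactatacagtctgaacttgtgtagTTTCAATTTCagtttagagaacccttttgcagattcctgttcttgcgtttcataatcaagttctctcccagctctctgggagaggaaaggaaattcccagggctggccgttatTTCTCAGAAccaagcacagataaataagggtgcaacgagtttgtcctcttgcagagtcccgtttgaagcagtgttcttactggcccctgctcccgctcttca
Socs1: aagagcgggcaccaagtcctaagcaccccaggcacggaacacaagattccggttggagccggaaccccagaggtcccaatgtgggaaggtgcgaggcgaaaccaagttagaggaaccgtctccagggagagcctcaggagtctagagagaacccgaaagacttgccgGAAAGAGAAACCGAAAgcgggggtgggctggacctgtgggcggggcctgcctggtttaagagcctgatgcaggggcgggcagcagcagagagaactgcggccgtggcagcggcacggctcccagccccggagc
Cxcl9: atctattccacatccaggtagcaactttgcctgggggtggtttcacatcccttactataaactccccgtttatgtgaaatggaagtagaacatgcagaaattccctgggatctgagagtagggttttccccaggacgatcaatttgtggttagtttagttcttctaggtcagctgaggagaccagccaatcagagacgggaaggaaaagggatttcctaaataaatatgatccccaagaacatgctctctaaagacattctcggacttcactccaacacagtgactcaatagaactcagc
Gbp5 held 2 matches to the first pattern, starting 245 and 52 bases before the start site, and 1 match to the second. Socs1 held 2 matches to the second pattern, at 83 and 77 bases before the start, which overlap each other. The Cxcl9 stretch held neither, which says only that these letters are not in it. Of 27025 mouse genes with a promoter in the table, 9.55% held the first pattern and 3.99% the second. Of 16 interferon-induced GTPase genes listed for this report, 10 had a promoter there, of which 6 held the first and 9 the second pattern. Of 13 listed genes of interferon-γ signalling, 9 had a promoter, of which 2 held the first and 2 the second. Of 21 listed type I interferon genes, none of them called, 15 had a promoter, of which 3 held the first and 9 the second. Of 17 listed T cell genes, 6 of them called, 9 had a promoter, of which 1 held the first and 0 the second. A match is a description of letters, not of binding.

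Cxcl9 encodes a chemokine that draws T cells through the receptor CXCR3. It was at 319 CPM in non-responder 1, 82.3 in non-responder 2 and 91.7 in non-responder 3, and at 11.6, 34.3, 28.6, 25.0 and 54.5 CPM in controls 1 to 5. All 3 tumours lay above all controls, with non-responder 1 standing far above the other 2. The log2 fold change was 2.37 ± 0.44 (SE, adjusted p = 0.0330), and it ranged from 1.48 (without non-responder 1) to 2.70 as each tumour was left out. Cxcl10, a chemokine for the same receptor, was at 124, 24.5 and 38.2 CPM against 17.3 to 29.9 CPM, and it did not pass (1.36, adjusted p = 0.166).

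Socs1 encodes an inhibitor of JAK-STAT signalling that interferon-γ induces. Its levels were 19.2, 7.22 and 5.04 CPM in the 3 tumours and 2.36 to 4.47 CPM in controls, without overlap. The increase was 1.66 ± 0.35 in log2 (SE, adjusted p = 0.0392), and 0.91 without non-responder 1. Ciita, the master regulator of MHC class II genes, was at 85.5, 47.8 and 29.1 CPM against 10.0 to 36.9 CPM, and non-responder 3 lay below control 5. It rose by 1.38 ± 0.31 (SE, adjusted p = 0.0480).

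Cxcl9, Socs1 and Ciita were the 3 of 13 genes of interferon-γ signalling that rose, and none fell. The median of the 13 was 1.06, against 0.02 over all genes, and 9 were higher at an unadjusted p under 0.05. Ido1, at 0.368, 0 and 0 CPM against 0 to 0.029 CPM, passed the filter only through other groups. No test is given for it, although it counts among the 13 and the 9. Irf1, an interferon-γ-induced transcription factor, stood at 171, 70.5 and 83.8 CPM against 35.9 to 67.6 CPM, above every control, with an adjusted p of 0.0657. The receptor chains Ifngr1 and Ifngr2 had log2 fold changes of 0.10 and 0.09. Ifng itself was at 3.67, 0.567 and 0.630 CPM against 0.036 to 0.566 CPM (2.62, adjusted p = 0.0815).

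The interferon-induced GTPases, which act against intracellular pathogens, were the list with the most genes above every control, 10 of 16. Of the 16, 6 rose (Gbp4, Gbp5, Gbp6, Gbp8, Gbp9 and Gbp10), none fell, all 16 were higher at an unadjusted p under 0.05, and their median was 1.54. Gbp5 (chr3:142493978-142522344 in GENCODE M21, which starts upstream of the RefSeq start used above) was at 92.9, 25.3 and 17.2 CPM against 4.30, 14.3, 7.59, 9.12 and 16.4 CPM in controls 1 to 5. Non-responder 3 lay just above the highest control. The log2 fold change was 2.07 ± 0.39 (SE, adjusted p = 0.0330) and 0.99 without non-responder 1. Gbp10 had 44.7, 6.11 and 11.2 CPM against 1.56 to 5.26 CPM, and Gbp4 236, 58.5 and 60.3 CPM against 9.64 to 40.4 CPM. The members of this family are near copies, and Gbp4, Gbp8 and Gbp9 overlap on 1 strand of chromosome 5, so reads may be split between them and single members are uncertain. Summed over the list, the levels were 4217, 1263 and 1419 CPM in the tumours and 515 to 1153 CPM in controls. Without non-responder 1 the median of the list was 0.76 and none of its genes was called, and without control 5 the median was 1.72 and 15 were called.

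Class II antigen presentation genes (Cd74, H2-Aa, H2-Ab1, H2-Eb1 and 5 others) had a median of 1.04, with 8 of 9 at an unadjusted p under 0.05 and none called. Cd74, the invariant chain, was at 1483, 1005 and 634 CPM against 223 to 894 CPM, the last of these in control 5. Control 5 had the highest summed class II level of the controls, 2064 CPM against 559 to 1029 CPM in the others. Without control 5, 5 of the 9 were called. Without control 1 or control 4 no gene was called at all, and without non-responder 1 the fit called 1 gene in total. The class I pathway had a median of 0.74 over 14 genes, with 8 at an unadjusted p under 0.05 and none called. H2-K1, a heavy chain, was at 1685, 800 and 839 CPM against 614 to 1079 CPM, so only non-responder 1 exceeded the controls. Genes of the type I interferon response had a median of 0.58 over 21 genes, all above 0, with 10 at an unadjusted p under 0.05 and none called. Their summed level was 2089 CPM in non-responder 1 but 813 and 707 CPM in the others, inside the control range of 604 to 995 CPM.

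**Figure D2:**
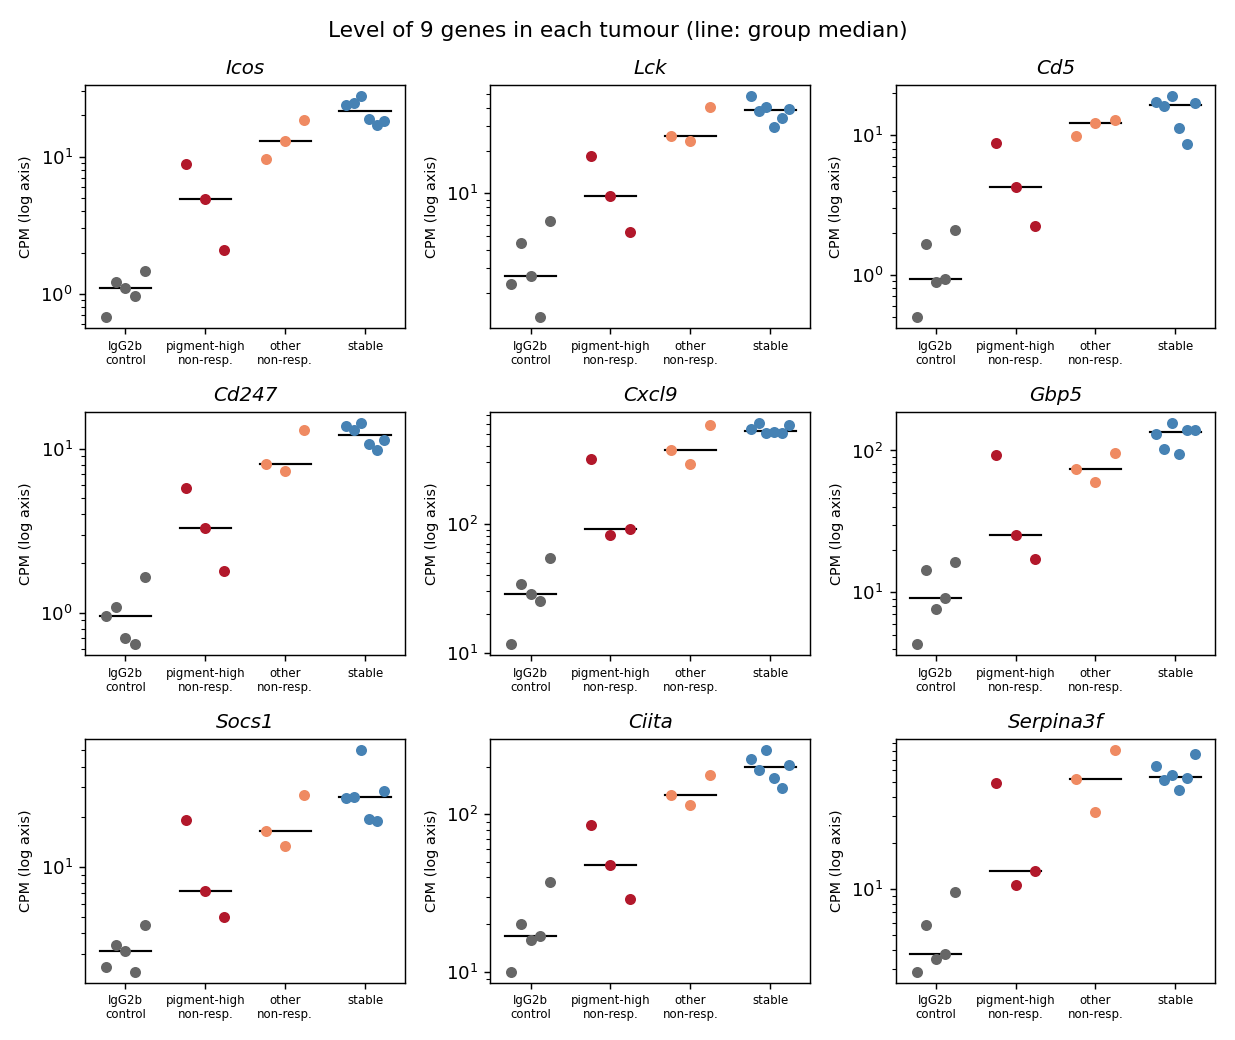
CPM (log axis) of 9 genes in each tumour of 4 groups, with a point for each tumour and a line at the group median. For Icos the pigment-high non-responders (2.07 to 8.92 CPM) lie between controls (up to 1.47 CPM) and stable tumours (from 17.0 CPM), and for Gbp5 non-responder 1 at 92.9 CPM stands apart from the other 2.

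Icos (chr1:60977927-61000320) encodes a costimulatory receptor of activated T cells and had an adjusted p as low as that of any gene. Its levels were 8.92, 4.90 and 2.07 CPM in non-responders 1, 2 and 3, and 0.675, 1.21, 1.10, 0.962 and 1.47 CPM in controls 1 to 5. The groups did not overlap, although the values rest on 46 to 97 counts in the tumours and 19 to 33 in controls. The log2 fold change was 2.21 ± 0.35 (SE, adjusted p = 0.0208), with a range of 1.62 (without non-responder 1) to 2.58 as each tumour was left out, and it was called in 5 of those 8 fits.

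Of 17 genes of the T cell receptor complex, coreceptors and proximal signalling, 6 rose, Cd5, Cd6, Cd247, Cd2 and Lck among them, and none fell. All 17 were higher at an unadjusted p under 0.05, with log2 fold changes from 1.04 to 2.01 and a median of 1.64. Cd247, the ζ chain of the receptor complex, was at 5.79, 3.30 and 1.80 CPM against 0.641 to 1.64 CPM. Cd5, a surface regulator of receptor signalling, was at 8.83, 4.23 and 2.25 CPM against 0.497 to 2.10 CPM. All 3 tumours lay above all controls at 3 of the 17 genes. At the called genes Cd6, Cd2 and Lck, non-responder 3 lay below control 5. The coreceptor genes Cd4 (1.18, adjusted p = 0.0657) and Cd8a (1.78, adjusted p = 0.0863) did not pass. Cd8a was at 16.0, 7.68 and 5.22 CPM against 1.14 to 5.95 CPM, so non-responder 3 lay below control 5.

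The list summed to 173, 95.5 and 51.8 CPM in non-responders 1, 2 and 3 and to 18.7 to 63.2 CPM in controls. Non-responder 3, the tumour with a pigment score inside the control range, was also inside the control range of this sum. For the GTPase sum it lay above every control, at 1419 CPM against 1153 CPM in the highest. A link of either sum with the score was not tested. Without non-responder 1 the median of the T cell list was 1.08 with none called, and without control 5 it was 1.98 with 14 called. In bulk tissue, more T cells and more RNA of these genes per cell cannot be told apart.

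**Figure D3:**
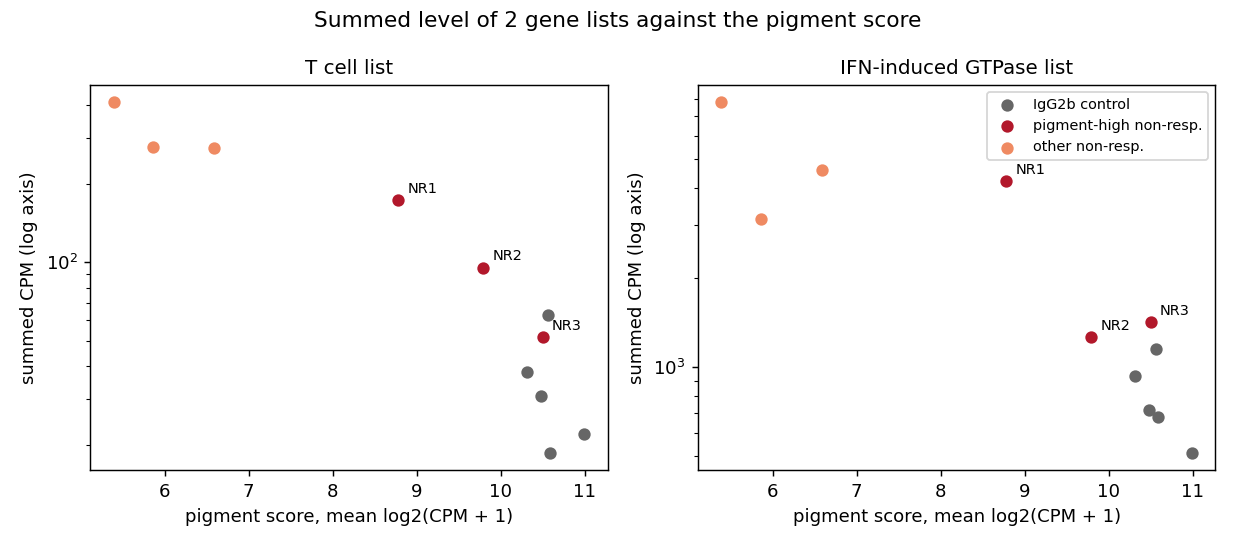
Summed CPM (log axis) of 17 T cell genes (left) and 16 interferon-induced GTPase genes (right) against the pigment score that chose the tumours, for controls and non-responders, with a point for each tumour (NR1 to NR3 are the pigment-high non-responders). The T cell sums of NR1, NR2 and NR3 are 173, 95.5 and 51.8 CPM, and the GTPase sums are 4217, 1263 and 1419 CPM.

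Ctla4, the target of the antibody, was at 4.51, 4.74 and 1.71 CPM in the 3 tumours and at 1.03, 1.37, 0.794, 0.933 and 3.00 CPM in controls. Non-responders 1 and 2 lay above every control and non-responder 3 below control 5. The log2 fold change was 1.29 ± 0.40 (SE) and did not pass (adjusted p = 0.148). The antibody binds the protein, so this transcript is no check of dosing. Of 6 genes of the CTLA-4, CD28 and ICOS axis, Icos was the 1 that rose. Cd28 (1.07), Cd80 (1.22) and Cd86 (0.81) were higher at an unadjusted p under 0.05, and Icosl (0.48) was not.

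Foxp3, the defining factor of regulatory T cells, was at 4.78, 3.71 and 0.866 CPM against 0.284 to 1.98 CPM. Non-responders 1 and 2 lay above every control and non-responder 3 within them (1.48 ± 0.45, SE, adjusted p = 0.139). Of 9 regulatory T cell genes, 2 rose and none fell. Il2ra, the α chain of the interleukin-2 receptor, was at 14.5, 5.77 and 2.39 CPM against 0.355 to 3.34 CPM (2.16 ± 0.45, SE, adjusted p = 0.0378, and 1.29 without non-responder 1). Tnfrsf18, the costimulatory receptor GITR, was at 7.54, 4.85 and 2.88 CPM against 0.888 to 2.38 CPM (1.69 ± 0.32, SE, adjusted p = 0.0330). Both genes are also expressed by activated T cells that are not regulatory.

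Of 18 cytotoxic and type 1 genes, 1 rose, Tbx21, which encodes the transcription factor T-bet. It was at 4.41, 2.53 and 1.49 CPM against 0.568, 0.484, 0.441, 0.554 and 1.70 CPM, with control 5 above non-responder 3 (1.85 ± 0.38, SE, adjusted p = 0.0351). Gzmb, granzyme B, was at 18.7, 5.26 and 4.55 CPM against 1.37 to 3.00 CPM, above every control, and did not pass (2.35, adjusted p = 0.0787). Prf1, perforin, was at 4.14, 3.76 and 1.17 CPM against 0.574 to 2.83 CPM (0.93, adjusted p = 0.557). Gzmd, Gzme, Gzmf and Gzmg stayed at or under 0.184 CPM in all 8 tumours. In stable tumours Gzmd was at 2.44 to 20.2 CPM and Gzmf at 3.62 to 15.9 CPM. These genes passed the filter only through groups where they are high, so no test is given, although they count among the 18.

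None of 13 inhibitory checkpoint genes was called by edgeR's quasi-likelihood test, although 8 were higher at an unadjusted p under 0.05, and their median was 0.96. Cd274, the gene of PD-L1 and itself an interferon-γ target, was at 101, 38.0 and 49.4 CPM against 23.0 to 36.6 CPM, above every control (1.06, adjusted p = 0.141). Pdcd1, the gene of PD-1, was at 3.49, 1.70 and 0.990 CPM against 0.391 to 2.30 CPM (0.81, adjusted p = 0.531).

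Other genes among the 12 largest increases without overlap were not members of the lists. H2-M2, a nonclassical class I gene, was at 13.7, 9.43 and 4.77 CPM against 0.847 to 3.68 CPM (2.52 ± 0.47, SE, adjusted p = 0.0330). Klrc1, which encodes the inhibitory receptor NKG2A of natural killer and CD8 T cells, was at 9.40, 2.81 and 1.93 CPM against 0.514 to 1.52 CPM (2.24 ± 0.49, SE, adjusted p = 0.0468, and 1.30 without non-responder 1). Ms4a4b, a membrane protein gene of T cells, was at 26.5, 11.6 and 6.13 CPM against 2.00 to 5.56 CPM. Serpina3f, a member of a serpin family of near copies and so uncertain by itself, was at 49.1, 10.6 and 13.2 CPM against 2.87 to 9.53 CPM. Apol10b was at 5.52, 1.80 and 1.31 CPM against 0.320 to 0.928 CPM. These 5 genes rose without overlap between the groups, and non-responder 1 was the highest at each.

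Only 6 genes fell, and 2 of them met the naming rule of no overlap and at least 1 CPM. Smyd3 (chr1:178951960-179518041), a lysine methyltransferase gene, was at 33.6, 39.5 and 24.3 CPM against 64.2, 44.8, 44.0, 61.5 and 63.0 CPM. In log2 units it fell by 0.84 ± 0.16 (SE), with an adjusted p of 0.0330. Dcaf6, a substrate adaptor of a ubiquitin ligase, was at 61.1, 63.5 and 53.3 CPM against 77.3 to 105 CPM, and it fell by 0.66 ± 0.13 (SE, adjusted p = 0.0330). Dstyk, Diras2, Arhgef37 and the unnamed transcript A330048O09Rik were the others, named here after their values were seen. A330048O09Rik had 0 counts in all 3 tumours and 0.426 to 0.736 CPM in controls. It passed the filter only through the controls, so no test is given for it, although it counts among the 6. Diras2, a small GTPase gene, was at 1.93, 1.91 and 7.74 CPM against 32.4, 6.86, 37.9, 67.0 and 42.5 CPM, with control 2 below non-responder 3 and above the other two. Smyd3, Dcaf6 and Dstyk lie on chromosome 1.

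The pigment programme beyond the 5 genes of the rule was tested with the choice in view, since these genes go with the score. None of 15 other melanosome genes was called by edgeR, 14 had log2 fold changes below 0, and their median was -0.43. At an unadjusted p under 0.05, 3 were lower, and at each of these all 3 tumours lay below all controls. Gpnmb, a melanosomal glycoprotein gene also expressed by macrophages, was at 2155, 1346 and 1481 CPM against 2414 to 4674 CPM (-0.99, adjusted p = 0.156). Bace2, a protease that processes the Pmel fibril, was at 57.5, 66.8 and 80.8 CPM against 107 to 183 CPM (-1.07, adjusted p = 0.0989). Gpr143, a melanosomal receptor gene, was at 4.96, 9.90 and 5.13 CPM against 15.0 to 29.3 CPM (-1.80, adjusted p = 0.410).

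Mitf, the melanocyte lineage factor, was at 214, 350 and 494 CPM against 380 to 629 CPM (-0.51, adjusted p = 0.433). Sox10, which acts above it, was at 351, 371 and 353 CPM against 362 to 416 CPM (-0.16, adjusted p = 0.885). None of the 12 lineage regulators was called, and their median was -0.10. Non-responder 1 was the lowest of the 8 tumours for Mitf and Sox10.

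Proliferation genes showed no called difference. The 14 DNA replication genes had log2 fold changes from -0.17 to 0.18 with a median of 0.02, and the 15 mitosis genes had -0.16 to 0.25 with a median of 0.01. None of these 29 genes had an unadjusted p under 0.05. The mitosis genes summed to 1559, 2105 and 2039 CPM in the tumours and 1403 to 2039 CPM in controls.

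Markers of other cells were read beside the T cell and interferon genes, and none of these lists had a called gene. The 6 natural killer cell genes had a median of 1.22, with 4 at an unadjusted p under 0.05, and summed to 16.8, 9.18 and 4.19 CPM against 2.78 to 8.04 CPM. The 9 B and plasma cell genes had a median of 1.11, all above 0 and 3 at an unadjusted p under 0.05. They summed to 140, 129.7 and 76.2 CPM against 16.5 to 103.5 CPM, with control 3 above non-responder 3. Of the 9, Jchain, Igkc and Cd79b lay above all controls in all 3 tumours, for Jchain at 15.4, 12.1 and 11.6 CPM against 1.07 to 7.68 CPM. The 9 dendritic cell genes had a median of 0.80, with 4 at an unadjusted p under 0.05.

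The 16 macrophage genes had a median of 0.32, with 2 at an unadjusted p under 0.05, and summed to 2885, 2877 and 2030 CPM against 1688 to 2578 CPM. The 12 fibroblast and collagen genes had a median of 0.73, with 4 at an unadjusted p under 0.05. At Col3a1, Dcn and Lum all 3 tumours lay above all controls, for Lum at 103, 190 and 152 CPM against 70.7 to 90.6 CPM. The mast cell proteases Cpa3, Mcpt4, Tpsb2 and Cma1 had log2 fold changes from 0.95 to 1.09, and the 7 mast cell and eosinophil genes summed to 155, 166 and 107 CPM against 42.5 to 109 CPM.

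Muscle genes summed to 1540, 1294 and 146 CPM in the tumours and 70.9 to 1463 CPM in controls, and keratinocyte genes to 71.9, 392 and 3.42 CPM against 9.97 to 597 CPM. Neither list had a gene at an unadjusted p under 0.05. All 5 haemoglobin and erythroid genes were lower at an unadjusted p under 0.05 (median -1.62), with sums of 37.8, 57.9 and 122 CPM against 54.7 to 489 CPM. All 12 hypoxia genes had log2 fold changes below 0 (median -0.43), with 1 at an unadjusted p under 0.05. They summed to 3000, 2984 and 5176 CPM against 3843 to 5367 CPM, so non-responder 3 lay inside the control range. The part of tissue make-up in the gene results was not tested.

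Each list can be set beside the other 3 non-responders, which share the same controls, so the 2 sets of values are given side by side only. The T cell median was 1.64 in the pigment-high and 3.25 in the other non-responders, and 17 of 17 genes were called in the latter. The GTPase median was 1.54 and 2.82, and the class II median 1.04 and 2.70. The cytotoxic median was 1.18 and 3.54, but it includes Gzmd, Gzme, Gzmf and Gzmg. These genes were near 0 in controls and pigment-high tumours and entered through other groups, so the 2 cytotoxic medians are not compared. The mitosis median was 0.01 and -0.84. Icos reached 9.65, 13.1 and 18.5 CPM in the other non-responders, against 8.92 CPM in non-responder 1. The difference between these sets is the contrast of the rule and was not tested.

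**Figure D4:**
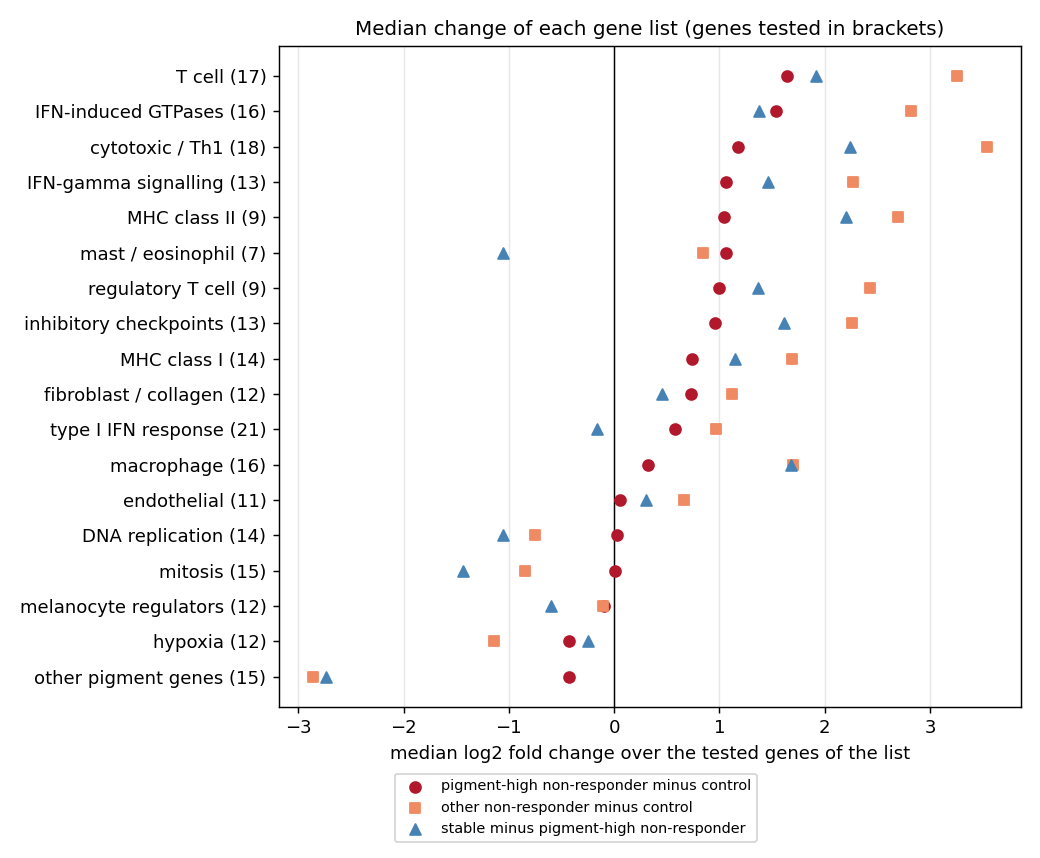
Median log2 fold change over the tested genes of 18 lists (number of genes in brackets) for 3 contrasts of the 25-tumour fit. For pigment-high non-responders minus controls the medians run from 1.64 (T cell) to -0.43 (hypoxia and other pigment genes), and the mitosis list is at 0.01. The cytotoxic medians include Gzmd, Gzme, Gzmf and Gzmg, for which no test is given.

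Stable tumours differed from the pigment-high non-responders at 4452 genes (23.7% of 18813), 2320 higher (12.3%) and 2132 lower (11.3%). Mitochondrial rRNA took 1.31 to 7.28% of counts in stable tumours and 0.870 to 1.06% in the pigment-high non-responders, without overlap, and its part in this comparison was not tested. All 17 T cell genes were higher in stable tumours, with a median of 1.91 (edgeR's quasi-likelihood test). Icos stood at 17.0 to 27.7 CPM there (median 21.4), above all 3 pigment-high tumours (log2 difference 2.18, adjusted p = 0.000122). Of 16 GTPase genes, 14 were higher, with a median of 1.38, and of 9 class II genes all 9, with a median of 2.20. Of 16 macrophage genes, 12 were higher, with a median of 1.68.

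In the other direction, 15 of 15 mitosis and 13 of 14 replication genes were lower in stable tumours, with medians of -1.43 and -1.05. The mast cell genes Cpa3, Mcpt4 and Cma1 were lower as well, while Siglecf and Ccr3 were higher. Of 21 type I interferon genes, 0 were called in either direction, and the median was -0.16. Cxcl9 was at 504 to 604 CPM in stable tumours and at 319 CPM in non-responder 1, and the log2 difference over the groups was 1.83 (adjusted p = 0.00567). Without non-responder 3 this comparison called 2638 genes.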

How the data were processed

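Bulk RNA-seq of 25 tumours was analysed, 8 of them in the main comparison. Per the submitters' processing notes, the authors used bcl2fastq 2.17, Trimmomatic, STAR 2.5.1, RSEM 1.2.22 and the mm10 genome, with no roles stated. Per the labels, libraries came from a stranded total RNA kit, while the molecule is given as polyA RNA, and this was not resolved. The authors deposited estimated counts (expected counts) for 55450 genes, of which 5.64% of values were not whole, and these were rounded. They also deposited RPKM values (reads scaled to gene length and depth), used in alternatives only, with a pseudocount of 1 or 0.1. Gene positions are from GENCODE M21 on GRCm38, the assembly that mm10 names.

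edgeR 4.0.16 in R 4.3.3 was run with TMM scaling, its default filter by group and a robust quasi-likelihood fit of 5 group means over all 25 tumours. Genes were called at an adjusted p under 0.05 (Benjamini-Hochberg). The 5 genes of the rule were left out of the main comparison's counts. CPM values are per column total. DESeq2 1.42.0 and limma 3.58.1 served as alternatives. In simulated data of the main comparison on 18813 genes, the fit recovered 19% of 100 genes changed 2-fold and 66% of 100 changed 4-fold, with 2.30% of calls false. Apart from the changed genes, the simulated counts had the same mean in all groups and the spread of the fitted trend. No simulated tumour stood apart from its group, so these rates do not describe the calls reported above.

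The tumours, the 37 gene lists and the rules were chosen with earlier results of these data known. Named genes were the 12 largest called changes each way among protein-coding genes with a mean of at least 1 CPM and no overlap, the called members of each list (up to 6), Ctla4, Foxp3 and members that define a list. Cd244 was read as Cd244a. Cd70, Ly6g, Epx and Tdo2 did not pass the filter. Some genes that met the naming rule are not reported here. Library numbers run by group in the labels, so processing order and group cannot be told apart. P-values measure the spread between these tumours.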

Additional observations from a re-analysis of the deposited data

Results flagged for a closer look

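Among 42 items (named genes, genes of the rule and the pigment score) checked for a control far from the other 4, 5 had one. Chance gives about 1 in 20 for independent, normally distributed values, which CPM values of related genes need not be. Control 5 was the highest for H2-M2 at 3.68 CPM (next 1.46), for Ctla4 at 3.00 CPM (next 1.37), for Tbx21 at 1.70 CPM (next 0.568) and for Spon1 at 79.6 CPM (next 57.7). Control 5 also had the highest summed T cell level of the controls, 63.2 CPM. Control 1 was the highest for Tyrp1 at 4043 CPM (next 2700), a gene of the rule. The part of these tumours in the comparisons is given by the counts of genes without each.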

How the results depend on the processing

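Of the 69 genes that differed between pigment-high non-responders and controls, each that was tested kept its direction in all 23 alternatives. The 69 were picked on mostly the same tumours, so the kept direction is no separate support. The number passing moved widely. It was 335 with DESeq2, 134 after adding each tumour's protein-coding share to the model, 123 with a stricter filter, 29 with no low-count filter, 14 and 7 with limma on log2(RPKM + 1) and log2(RPKM + 0.1), and 0 in the fits of the 8 and of the 11 tumours and for a change of at least 2-fold (2190, 2073 and 335 at an unadjusted p under 0.05). With the 4 highest, all 6 and the 2 highest non-responders it was 837, 2500 and 1, and leaving out each tumour in turn gave 0 to 498. It stayed within 1.5 times with size factors in place of TMM (48), protein-coding genes only (52) and the ranking on RPKM (69, the same tumours). Of 36 single genes compared, Insrr, Myo16 and A330048O09Rik included, none reversed. All 36 kept their side of the threshold with DESeq2, and 2 of 34 did so in the fit of the 8 tumours (Ctla4 and Foxp3, not called in either). Stable minus pigment-high non-responders gave 534 genes for at least 2-fold and 2638 to 4243 leaving out each pigment-high tumour, and other non-responders minus controls gave 1083 for at least 2-fold. The cause was not tested. No paired analysis was possible because the labels give no replicate number that groups share. The comparison has 3 treated tumours, with non-responder 1 at 10.9 M counts, and the part of group size and depth in the number of calls was not tested. A gene that was not called may still differ.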

Other observations

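Ubd and Spon1 were called higher in the pigment-high non-responders, and Insrr and Myo16 count among the 63 higher genes. All of them fall outside the naming rule or its lists. They were chosen after their values were seen. Ubd, which encodes a ubiquitin-like modifier induced by interferon-γ, was at 16.6, 0.876 and 2.66 CPM in non-responders 1, 2 and 3 against 0.106 to 1.02 CPM in controls. Spon1, which encodes an extracellular matrix protein, was at 143, 178 and 109 CPM against 50.7 to 79.6 CPM, without overlap (log2 fold change 1.22, adjusted p = 0.0330). Insrr and Myo16 rest on 4 to 15 counts in each of the 3 tumours and on 0 to 4 in controls. Both passed the filter only through other groups, such as stable tumours (1.07 to 2.45 and 1.26 to 3.24 CPM), so no test is given for them.

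The median of log2 differences over genes of a chromosome, against the mean of the controls and centred per tumour, was computed per tumour over 11501 genes. In non-responder 3 it was -0.21 on chromosome 1, -0.25 on chromosome 15 and 0.23 on chromosome 19. In the other 3 non-responders it was -0.11 to -0.17, -0.18 to -0.25 and 0.12 to 0.15 on these chromosomes, and in stable tumours -0.11 to -0.16, -0.15 to -0.21 and 0.09 to 0.14. In non-responders 1 and 2 all 3 medians lay between -0.07 and 0.04. In controls they lay between -0.09 and 0.07, but control 2 was at 0.22 on chromosome 12, so an untreated tumour also had a shift of this size. Smyd3, Dcaf6 and Dstyk, which were lower in the pigment-high non-responders, are on chromosome 1, and the part of this shift in them was not tested.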
